A study of Mus musculus with 8 samples.

Results

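Serine is made in cells from the glycolytic intermediate phosphoglycerate, and its side carbon is then passed to folate. The genes described here are the 9 enzymes of these steps: Phgdh, Psat1, Psph, Shmt1, Shmt2, Mthfd1, Mthfd2, Mthfd1l and Tyms. They were taken by gene symbol from a table of 19688 mouse genes, and all 9 were found in it and entered the tests. RNA had been sequenced from mouse blastocysts, early embryos with a cavity, an outer layer called trophectoderm and an inner cell mass. The 3 libraries of the melatonin group (MVT) came from blastocysts vitrified and thawed with 1e-10 M melatonin in both media. The 3 of the vitrified group (VT) came from blastocysts vitrified and thawed without it. The other 2 came from fresh blastocysts that were never vitrified. The fresh libraries carry the letters IVF in their titles, and those of the VT and MVT groups do not. Strain, embryo age and the number of embryos behind a library are not stated, nor whether libraries came from separate animals or pools, so the p-values below measure only the spread between these samples.

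Phgdh, Psat1 and Psph act in sequence to turn phosphoglycerate into serine. The hydroxymethyltransferases Shmt1, in the cytosol, and Shmt2, in mitochondria, split serine into glycine and a methylene group carried by folate. Mthfd1 in the cytosol, and Mthfd2 and Mthfd1l in mitochondria, interconvert the folate-bound groups that feed purine synthesis, and Tyms uses one such group to make thymidylate for DNA. In mouse and human cells, several of these genes are known targets of ATF4, a transcription factor switched on when amino acids are scarce.

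The 9 genes are protein-coding genes and lie apart from each other on GRCm38 (mm10): Phgdh at chr3:98313170-98339990, Psat1 at chr19:15904678-15947337, Psph at chr5:129765558-129787449, Shmt1 at chr11:60788104-60811718, Shmt2 at chr10:127517123-127522444 and Mthfd2 at chr6:83305691-83325908. Tyms lies at chr5:30058202-30073617, and all 7 of these are on the minus strand. Mthfd1 at chr12:76255298-76319803 and Mthfd1l at chr10:3973118-4167081 are on the plus strand. Exons of 4 members overlap a gene on the opposite strand, namely Psph with Cct6a, Shmt1 with Smcr8, Shmt2 with Ndufa4l2 and Mthfd1 with Gm47525. How strand was used in counting is not given in the sources used here, so reads in those overlaps cannot be assigned to either gene with certainty.

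The promoters of the 3 serine synthesis genes are shown because the member that passed the test below is one of them. Each is the RefSeq window on GRCm38.p6 from 250 bases before to 50 bases after the annotated start, read 5′ to 3′ on the gene's strand. The windows lie at chr3:98339920-98340219 for Phgdh, chr19:15925010-15925309 for the more upstream of the 2 Psat1 windows, and chr5:129787204-129787503 for Psph, all on the minus strand. Capitals mark matches to the antioxidant response element, searched as TGACNNNGC on both strands, and both matches shown are to its reverse complement.
Phgdh: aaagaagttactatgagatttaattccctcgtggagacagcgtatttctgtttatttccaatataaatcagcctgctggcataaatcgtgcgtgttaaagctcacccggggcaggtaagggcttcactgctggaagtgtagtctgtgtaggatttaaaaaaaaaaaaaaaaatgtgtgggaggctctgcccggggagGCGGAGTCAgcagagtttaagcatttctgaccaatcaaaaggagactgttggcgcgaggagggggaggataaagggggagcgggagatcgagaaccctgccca
Psat1: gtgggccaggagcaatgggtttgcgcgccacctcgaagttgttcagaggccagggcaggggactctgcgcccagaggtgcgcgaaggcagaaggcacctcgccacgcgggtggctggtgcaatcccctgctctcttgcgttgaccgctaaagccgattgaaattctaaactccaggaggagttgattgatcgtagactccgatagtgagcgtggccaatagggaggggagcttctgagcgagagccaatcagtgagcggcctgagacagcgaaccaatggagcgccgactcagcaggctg
Psph: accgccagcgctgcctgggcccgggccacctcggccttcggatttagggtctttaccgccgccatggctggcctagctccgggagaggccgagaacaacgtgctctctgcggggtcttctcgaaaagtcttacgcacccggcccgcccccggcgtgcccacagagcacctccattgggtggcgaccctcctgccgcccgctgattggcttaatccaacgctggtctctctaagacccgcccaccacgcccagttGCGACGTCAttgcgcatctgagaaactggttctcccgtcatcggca
With the start base as 0, the matches span -53 to -45 in Phgdh and 4 to 12 in Psph. These were the matches in 2 of 9 members, where 12.39% of 32851 mouse promoter windows hold the motif. The C/EBP-ATF response element, searched as TGATGNAA, was in the window of 0 of 9 members and in 3.97% of all windows. The E2F motif (TTTCCCGC or TTTGGCGC) was likewise in 0 of 9 members and in 1.56% of all windows. The E-box CACGTG was in 1 of 9 members, Tyms, at -61 to -56, and in 7.15% of all windows. All 4 motifs were searched on both strands in all windows, including both Psat1 windows, and no motif overlapped another in a member. A match says only that the letters occur there.

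The libraries held an estimated 5815000 to 9996000 fragments assigned to genes, and values are FPKM, fragment numbers scaled by transcript length and by library depth. At a transcript length of 2 kb, 1 FPKM stood for 11.6 to 20.0 fragments. By the longest annotated transcript, Mthfd1l rested on 8 to 109 fragments per library, Psph on 244 to 1259, and the other 7 members on at least 438. Fresh replicate 1 stood apart from the other libraries, with 11.3% of summed FPKM from mitochondrially encoded genes, against 4.24% to 6.56% in the other 7, and with 11.4 FPKM of the nuclear RNA Malat1, against 70.3 to 149. All 9 trophectoderm markers were above 0 in every library, with sums of 8900 to 11400 FPKM in MVT, 6640 to 11100 in VT and 7780 to 7870 in fresh libraries. The keratins Krt8 and Krt18 gave most of these sums, with means of 1990 and 5636 FPKM in fresh libraries. Elf5 averaged 7.15 FPKM in VT and 16.0 in fresh libraries, and Gata3 averaged 141.1 in VT and 72.7 in fresh libraries. In VT against fresh, 5 of the 9 were higher and 4 lower, and 0 passed the test below. Epiblast markers summed to 140 to 158 FPKM in MVT, 140 to 182 in VT and 28.8 to 75.1 in fresh libraries, with 7 of 8 above 0 in every library. In VT against fresh all 7 tested epiblast markers were higher, with a median log2 fold change of 1.1, beside 0.14 for all tested genes. Of these, 1 passed the test below, Nanog (2.205 ± 0.325, SE, limma, adjusted p = 0.0394), where 0.762% of all tested genes were called higher. Primitive endoderm markers, all 7 above 0 in every library, summed to 112 to 167 FPKM in MVT, 153 to 209 in VT and 100 to 157 in fresh libraries. In VT against fresh 6 of these 7 were higher and 1 lower, and 0 passed. Cumulus cell markers summed to 1.39 FPKM or less, with 2 of 8 in the table, and oocyte markers to 4.61 or less, with 5 of 8 in the table. Y-linked transcripts summed to 0 FPKM in VT replicates 2 and 3 and to 20.9 to 36.8 FPKM in the other 6 libraries, so embryo sex is partly confounded with the VT group. The part of RNA quality and cell make-up in the differences below was not tested, and in such bulk samples fewer cells of a type and less RNA per cell cannot be told apart.

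The last enzyme of serine synthesis was the only member called in VT against fresh (adjusted p below 0.05 by limma), where it was lower. Phgdh, Psat1, Shmt2 and Mthfd2 also lay lower in all VT libraries than in both fresh libraries, without passing. Psph, the phosphatase that releases serine, stood at 12.08, 16.29 and 14.83 FPKM in the 3 VT libraries, against 43.78 and 35.03 FPKM in the 2 fresh libraries. All 3 VT values were below both fresh values. The log2 fold change on log2(FPKM + 1) was -1.39 ± 0.21 (SE; limma, adjusted p = 0.0394), and the ratio of means was 0.365. The MVT libraries, at 19.47, 15.78 and 21.99 FPKM, also lay below both fresh libraries, with a log2 fold change of -1.01 ± 0.21 that did not pass (limma, adjusted p = 0.116). Against VT the MVT value was 0.38 ± 0.18 higher on the log2 scale (limma, adjusted p = 0.367), and the 2 groups overlapped. The call of VT against fresh was lost without fresh replicate 1 (-1.24, adjusted p = 0.0929), MVT replicate 3 (-1.39, 0.0756), VT replicate 1 (-1.28, 0.0773), VT replicate 2 (-1.48, 0.062) or VT replicate 3 (-1.42, 0.128), all by limma. Over 20 alternative settings the log2 fold change stayed between -1.82 and -1.24, with adjusted p from 0.0191 to 0.128 by limma, and it passed in 7 of them. With the presence of Y-linked transcripts as a covariate it was -1.62. That value sets VT replicate 1 alone against the fresh libraries, since VT replicates 2 and 3 held no Y-linked transcripts. Cct6a, a chaperonin gene whose exons overlap Psph on the other strand, had 153, 177 and 146 FPKM in MVT, 179, 177 and 190 FPKM in VT, and 140 and 146 FPKM in fresh libraries.

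Psat1, the aminotransferase before Psph, was measured at 173.6, 75.13 and 118.2 FPKM in MVT, 74.09, 69.09 and 102.1 FPKM in VT, and 226.6 and 181.4 FPKM in fresh libraries. Both fresh libraries exceeded all 6 vitrified ones, and MVT replicate 1 came closest to them. Psat1 was the member with the widest range of FPKM in the MVT group. The VT minus fresh difference was -1.32 ± 0.31 on the log2 scale, with a 95% confidence interval of -2.02 to -0.62, and its adjusted p of 0.0674 by limma missed the threshold of 0.05. The MVT minus fresh difference was -0.81 ± 0.31 (limma, adjusted p = 0.227), and MVT minus VT was 0.52 ± 0.28 (limma, adjusted p = 0.417).

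Phgdh, the dehydrogenase that commits phosphoglycerate to serine, varied least of these 3 enzymes. It was measured at 53.68, 55.22 and 63.92 FPKM in MVT, 46.83, 40.05 and 53.31 FPKM in VT, and 62.22 and 55.94 FPKM in fresh libraries. The VT libraries were the lowest and overlapped neither other group, while MVT and fresh libraries overlapped. The differences were -0.34 ± 0.17 for VT minus fresh (limma, adjusted p = 0.292), 0.30 ± 0.15 for MVT minus VT (limma, adjusted p = 0.383) and -0.04 ± 0.17 for MVT minus fresh (limma, adjusted p = 0.926). The last has a 95% confidence interval of -0.42 to 0.34, so a difference of that size is not excluded by these libraries.

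**Figure D1:**
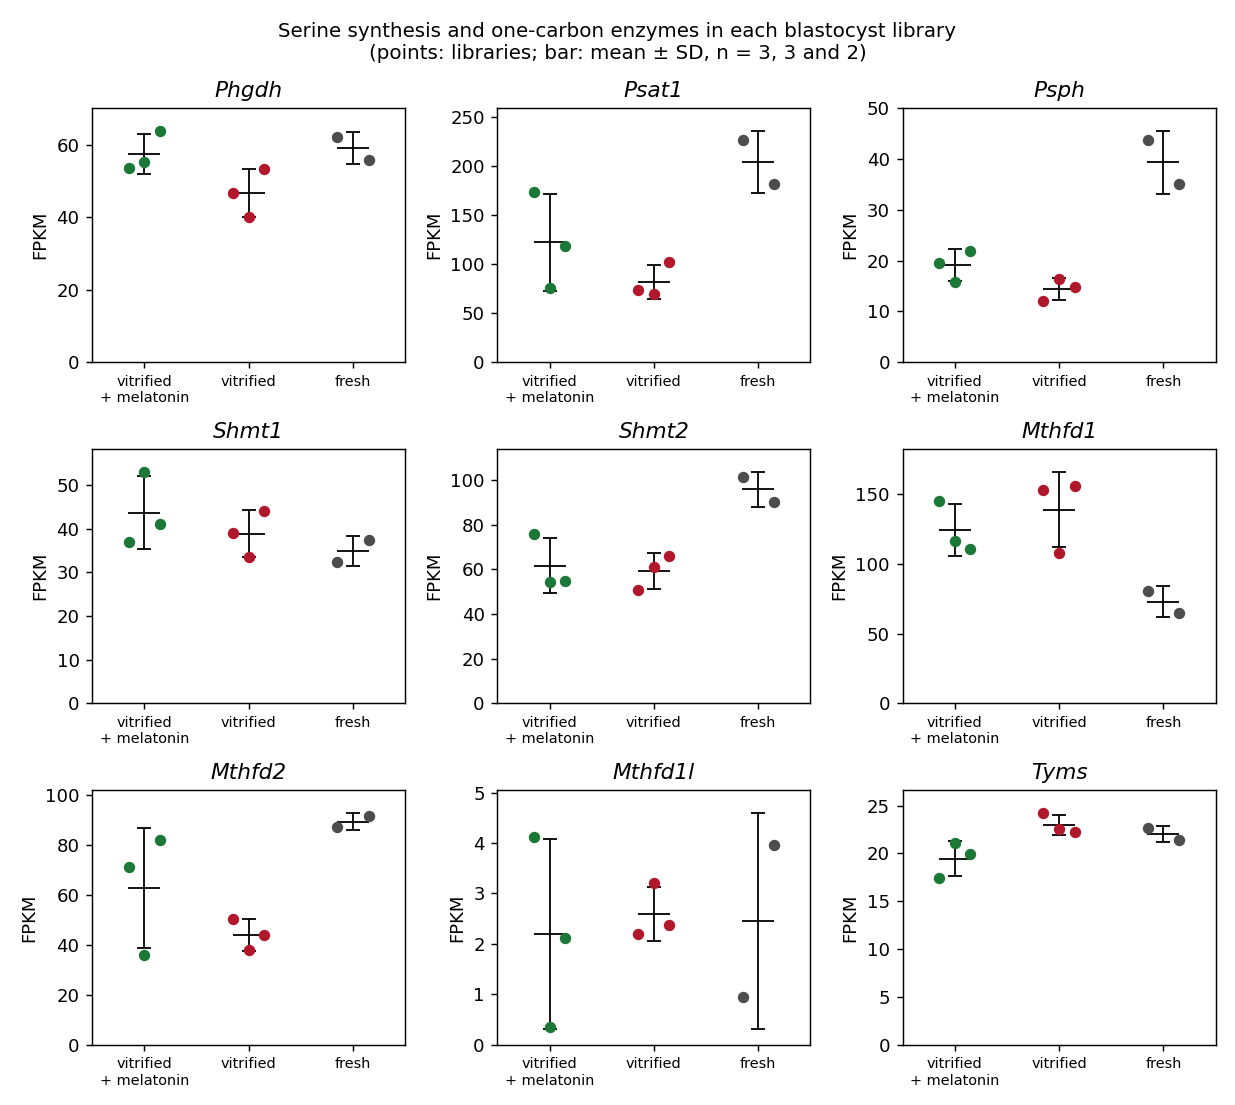
FPKM of each of the 9 enzymes in the MVT, VT and fresh libraries (points are libraries, bars the mean ± SD, n = 3, 3 and 2). Psph and Psat1 show both fresh libraries above all 6 vitrified ones, Mthfd1 shows both below them, and Tyms spans 17.46 to 24.20 FPKM over all libraries.

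The pair of serine hydroxymethyltransferases differed in their values. Mitochondrial Shmt2 had 75.90, 54.17 and 54.85 FPKM in MVT, 50.66, 61.03 and 66.07 FPKM in VT, and 101.3 and 90.34 FPKM in fresh libraries. Both fresh libraries exceeded all 6 vitrified ones, with differences of -0.69 ± 0.19 for VT minus fresh (limma, adjusted p = 0.0917) and -0.64 ± 0.19 for MVT minus fresh (limma, adjusted p = 0.164). MVT and VT overlapped, and their difference of 0.05 ± 0.17 has a 95% confidence interval of -0.34 to 0.43. Cytosolic Shmt1 had 36.93, 52.99 and 41.03 FPKM in MVT, 39.05, 33.46 and 44.14 FPKM in VT, and 32.40 and 37.34 FPKM in fresh libraries. All 3 groups overlapped, and the VT minus fresh difference of 0.15 ± 0.20 (limma, adjusted p = 0.715) took the value -0.046 under median ratio scaling. Shmt2 accounted for 67.3%, 50.6% and 57.2% of the summed Shmt1 and Shmt2 FPKM in MVT, for 56.5%, 64.6% and 60.0% in VT, and for 75.8% and 70.8% in fresh libraries. The mitochondrial share was thus highest in the 2 fresh libraries.

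Among the folate enzymes, the cytosolic and a mitochondrial member stood on opposite sides. Mthfd1, the cytosolic enzyme with 3 activities, was measured at 144.9, 115.8 and 110.7 FPKM in MVT, 152.4, 107.6 and 155.7 FPKM in VT, and 80.50 and 64.87 FPKM in fresh libraries. All 6 vitrified libraries exceeded both fresh ones. The differences were 0.91 ± 0.21 for VT minus fresh (limma, adjusted p = 0.0607) and 0.76 ± 0.21 for MVT minus fresh (limma, adjusted p = 0.148), and MVT minus VT was -0.15 ± 0.18 (limma, adjusted p = 0.734). Mthfd1 passed in VT against fresh in 1 of 20 alternative settings, FPKM rescaled to a common sum, at 1.02 (limma, adjusted p = 0.0499).

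Mthfd2, the mitochondrial dehydrogenase and cyclohydrolase, had 70.88, 35.77 and 81.75 FPKM in MVT, 50.19, 37.71 and 43.70 FPKM in VT, and 86.90 and 91.56 FPKM in fresh libraries. Both fresh libraries exceeded all others, 2 MVT libraries lay between them and the VT libraries, and MVT replicate 2 was the lowest of all 8. The VT minus fresh difference was -1.02 ± 0.30 (limma, adjusted p = 0.11), MVT minus fresh was -0.58 ± 0.30 (limma, adjusted p = 0.34) and MVT minus VT was 0.43 ± 0.27 (limma, adjusted p = 0.481). Its isozyme Mthfd2l reached 0.2024 FPKM at most, so that Mthfd2 made up at least 99.5% of their sum in every library. Without fresh replicate 1, the VT minus fresh values were -1.16 for Psat1, -0.61 for Shmt2, 1.06 for Mthfd1 and -1.05 for Mthfd2, none past the threshold by limma (adjusted p = 0.223, 0.274, 0.111 and 0.255).

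Mthfd1l, the mitochondrial formyl-folate synthetase, was the lowest member, with 4.119, 0.3619 and 2.108 FPKM in MVT, 2.197, 3.205 and 2.376 FPKM in VT, and 0.940 and 3.963 FPKM in fresh libraries. The groups overlapped in every pairing. Its VT minus fresh difference of 0.20 ± 0.54 has a 95% confidence interval of -1.002 to 1.404 and took the value -0.477 without fresh replicate 1, so its direction was not settled by these libraries. Tyms, which makes thymidylate, had 17.46, 21.06 and 19.90 FPKM in MVT, 24.20, 22.59 and 22.22 FPKM in VT, and 22.62 and 21.41 FPKM in fresh libraries. MVT lay below both other groups, and VT and fresh overlapped. The differences were -0.23 ± 0.14 for MVT minus VT (limma, adjusted p = 0.463), -0.17 ± 0.16 for MVT minus fresh (limma, adjusted p = 0.587) and 0.06 ± 0.16 for VT minus fresh (limma, adjusted p = 0.864). The last was -0.009 after quantile normalization and -0.131 after median ratio scaling.

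Over the 9 members, vitrified against fresh gave 1 call, Psph, which was lower. Of all 10755 genes tested, 0.102% were called lower and 0.762% higher in this comparison, 93 genes in all. By non-overlap of libraries, 5 members were lower (Phgdh, Psat1, Psph, Shmt2 and Mthfd2), where 10.6% of all tested genes were lower, and 1 was higher (Mthfd1), where 26.4% of all tested genes were higher. The median log2 fold change was -0.34 over the members and 0.14 over all tested genes, and 5 members had an unadjusted limma p below 0.05, as did 2169 of the 10755 tested genes. The all-gene median moved by more than 0.1 with scaling, to -0.014 under median ratio scaling, where Psph stood at -1.58, Psat1 at -1.52, Mthfd2 at -1.21, Shmt2 at -0.89 and Mthfd1 at 0.71. Of the 93 genes, 82 were called higher and 11 lower, against 3 higher and 4 lower under median ratio scaling, 0 higher and 3 lower after quantile normalization, and 182 higher and 13 lower after rescaling to a common sum. With 1 fresh library left, non-overlap is easier to reach. Without fresh replicate 1, 6 members were lower, beside 26.7% of all tested genes, and 2 were higher, beside 37.7%, and without fresh replicate 2, 5 were lower, beside 22.1%, and 3 were higher, beside 49.7%.

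For MVT against fresh, limma called 0 of the 9 members, and 4 had an unadjusted p below 0.05. It called 0% of all tested genes, of which 1985 had an unadjusted p below 0.05. The libraries did not overlap for 5 members that were lower (Psat1, Psph, Shmt2, Mthfd2 and Tyms), beside 13.5% of all tested genes, and for 1 that was higher (Mthfd1), beside 20.8%. Without fresh replicate 2, Psph was called here, at -1.17 (limma, adjusted p = 0.039), and 565 genes were called in all. The member median was -0.17, against 0.09 over all tested genes. Both comparisons use the same 2 fresh libraries, so their values for the members are not independent.

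For MVT against VT, the comparison of melatonin with none, limma called 0 of the 9 members, and 0 had an unadjusted p below 0.05. It called 0.139% of all tested genes, 3 higher and 12 lower, and 1596 genes had an unadjusted p below 0.05. The libraries did not overlap for Phgdh, which was higher in MVT, beside 9.30% of all tested genes, and for Tyms, which was lower, beside 15.4%. The difference was above 0 for 6 members and below 0 for 3, with a median of 0.16, against -0.05 over all tested genes. The widest intervals for abundant members were those of Psat1, -0.11 to 1.15, and Mthfd2, -0.18 to 1.05, in which MVT replicate 2 lay low.

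**Figure D2:**
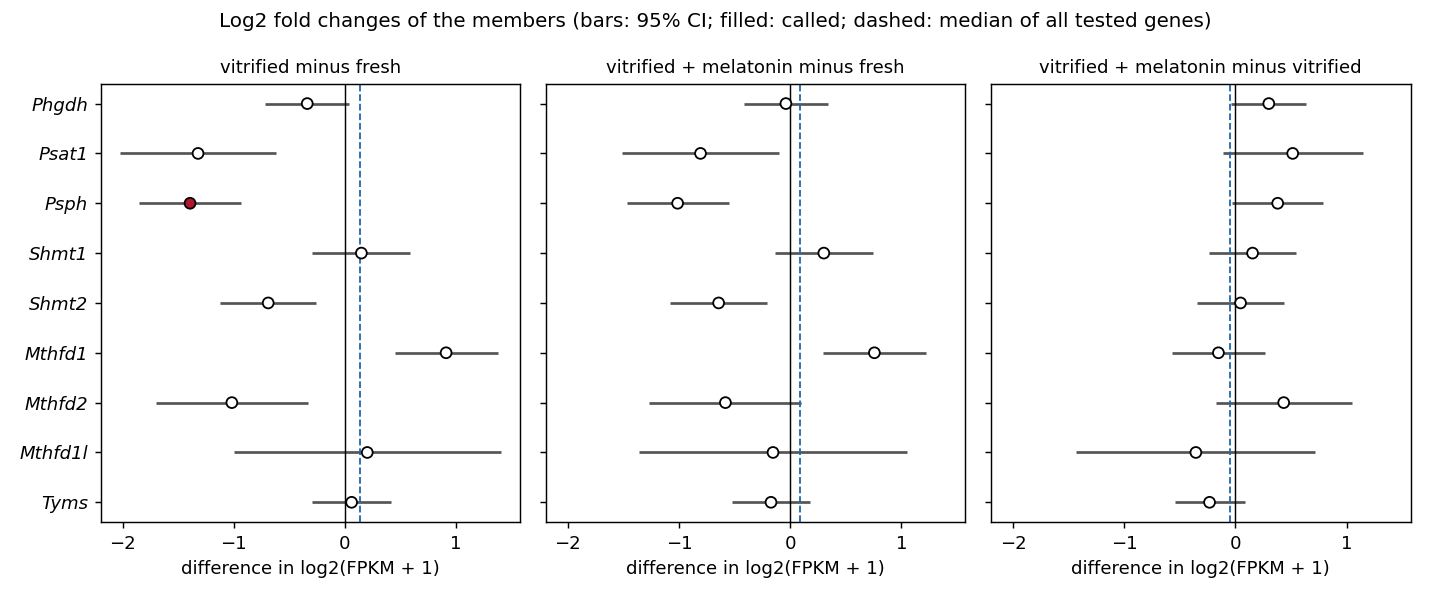
Log2 fold change of each enzyme, as a difference of mean log2(FPKM + 1), for VT minus fresh, MVT minus fresh and MVT minus VT, with 95% confidence intervals. Psph in VT minus fresh, at -1.39, is the filled point that passed at an adjusted p below 0.05, and dashed lines give the median of all tested genes (0.14, 0.09 and -0.05).

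The balance between the enzymes was then compared within each library, where the scaling of the library drops out. The ratio of Mthfd1 to Mthfd2 FPKM, cytosolic over mitochondrial, was 2.04, 3.24 and 1.35 in MVT, 3.04, 2.85 and 3.56 in VT, and 0.926 and 0.709 in fresh libraries. All 6 vitrified libraries held more Mthfd1 than Mthfd2 FPKM, and both fresh libraries held less. Mthfd1 and Mthfd2 each separated these libraries, in opposite directions, so their ratio had to separate them too and is no further result. The mean was 2.21 ± 0.95 in MVT, 3.15 ± 0.37 in VT and 0.817 ± 0.154 in fresh libraries (SD, n = 3, 3 and 2). Phgdh over Psph was 2.76, 3.50 and 2.91 in MVT, 3.88, 2.46 and 3.60 in VT, and 1.42 and 1.60 in fresh libraries, so that the first enzyme of serine synthesis outweighed the last by more in every vitrified library. Psat1 over Phgdh was 3.23, 1.36 and 1.85 in MVT, 1.58, 1.73 and 1.91 in VT, and 3.64 and 3.24 in fresh libraries. The 2 fresh libraries had the highest ratios, MVT replicate 1 came next and MVT replicate 2 was the lowest of all. Psat1 over Psph, at 8.92, 4.76 and 5.37 in MVT, 6.13, 4.24 and 6.88 in VT, and 5.18 in both fresh libraries, did not separate the groups. Mthfd1l made up 2.76%, 0.312% and 1.87% of the summed Mthfd1 and Mthfd1l FPKM in MVT, 1.42%, 2.89% and 1.5% in VT, and 1.15% and 5.76% in fresh libraries. These ratios are a description and were not tested, and of those in this paragraph only the Mthfd1l share was planned.

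**Figure D3:**
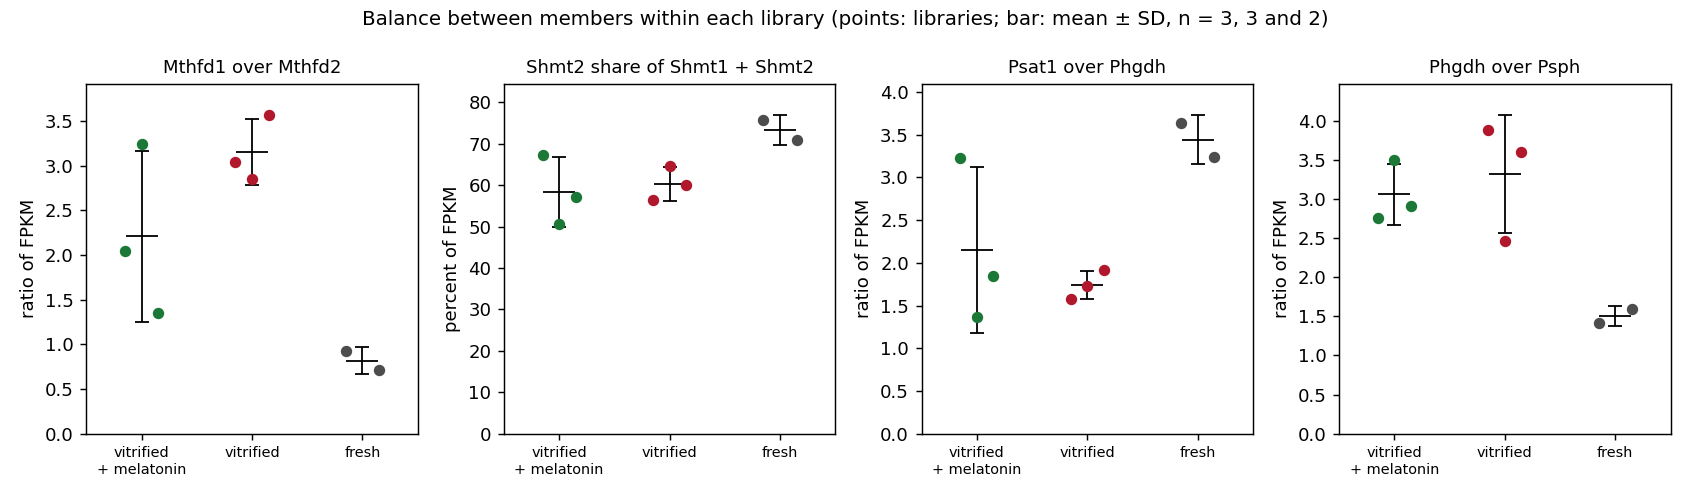
Ratios and shares of FPKM between members within each library, for the MVT, VT and fresh groups (points are libraries, bars the mean ± SD, n = 3, 3 and 2). Mthfd1 over Mthfd2 is above 1 in all 6 vitrified libraries and below 1 in both fresh libraries (0.926 and 0.709). Since both genes separate these libraries, in opposite directions, their ratio does so too.

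Summed over Phgdh, Psat1 and Psph, the serine synthesis genes held 247, 146 and 204 FPKM in MVT, 133, 125 and 170 FPKM in VT, and 333 and 272 FPKM in fresh libraries. By mean FPKM, Psat1 led in fresh libraries at 204 ± 32 FPKM, behind which came Shmt2 and Mthfd2 and then Mthfd1 at 72.7 ± 11.1 FPKM. Mthfd1 came first in MVT at 123.8 ± 18.5 FPKM and in VT at 138.5 ± 26.9 FPKM, with Psat1 next at 122.3 ± 49.4 and 81.8 ± 17.8 FPKM. Their libraries overlapped in MVT and not in VT or fresh. The order in MVT went on with Mthfd2, Shmt2, Phgdh, Shmt1, Tyms, Psph and Mthfd1l, and neighbours from Mthfd1 down to Phgdh, and Tyms and Psph, overlapped. In VT it went on with Shmt2, Phgdh, Mthfd2, Shmt1, Tyms, Psph and Mthfd1l, with overlap among neighbours from Shmt2 to Shmt1. In fresh libraries, Psat1 was followed by Shmt2, Mthfd2, Mthfd1, Phgdh, Psph, Shmt1, Tyms and Mthfd1l, where Shmt2 overlapped Mthfd2 and Psph overlapped Shmt1. Psph thus stood above Tyms in fresh libraries and below it in both vitrified groups by mean.

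The genes around these enzymes were described with the same fit, in lists chosen with earlier results of these data known. The list of ATF4 and its target genes lay lower in VT than in fresh libraries in 17 of its 18 tested genes (of 20 listed). Its median was -0.69, beside 0.14 for all tested genes, of which 63.5% were above 0. In the list 2 of the 18 were called lower, beside 0.102% of all tested genes. Atf4 itself had 121.0, 81.30 and 111.3 FPKM in MVT, 72.61, 78.55 and 73.99 FPKM in VT, and 141.5 and 157.6 FPKM in fresh libraries, with a VT minus fresh log2 fold change of -0.98 ± 0.18 (limma, adjusted p = 0.0477). Chac1, a glutathione-degrading enzyme, had 8.550, 4.676 and 24.91 FPKM in MVT, 4.350, 4.808 and 3.275 FPKM in VT, and 37.83 and 41.81 FPKM in fresh libraries, with a VT minus fresh log2 fold change of -2.998 ± 0.502 (limma, adjusted p = 0.0394). For both genes all VT libraries lay below both fresh libraries. Replicate 2 was the lowest MVT library for both, as for the members Psat1, Psph, Shmt2, Mthfd2 and Mthfd1l, whereas Shmt1 and Tyms were highest in it. For Shmt2 the margin was small, at 54.17 against 54.85 FPKM in MVT replicate 3. MVT replicate 2 also had the fewest estimated fragments of its group, 5879000 against 7145000 and 7064000. A link between ATF4 and the members was not tested. MVT minus VT was 0.45 ± 0.16 for Atf4 and 1.13 ± 0.45 for Chac1, and neither passed (limma, adjusted p = 0.258 and 0.292). Over the list, MVT minus VT had a median of 0.19 with 12 of 18 above 0, MVT minus fresh had a median of -0.49 with 16 of 18 below 0, and 0 genes were called in either. Of all tested genes, 43.8% were above 0 in MVT minus VT and 59.3% in MVT minus fresh, with medians of -0.05 and 0.09. Without fresh replicate 1 no gene of the list was called in VT against fresh, and its median was -0.72. Without fresh replicate 2 none was called either, and the median was -0.45. Such fits hold a single fresh library, so calls gained in them are not listed for this or the following lists.

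Folate uptake and interconversion had 10 of its 14 genes tested, 1 of which was called higher in VT against fresh. The share called higher among all tested genes was 0.762%. Aldh1l1, which removes formyl groups from folate, had 4.134, 2.604 and 2.934 FPKM in MVT, 6.123, 4.148 and 6.934 FPKM in VT, and 0.8509 and 1.622 FPKM in fresh libraries, with a VT minus fresh log2 fold change of 1.59 ± 0.28 (limma, adjusted p = 0.0414). All 6 vitrified libraries exceeded both fresh ones. The list's median was -0.04, beside 0.14 for all tested genes. In thymidylate and deoxynucleotide supply 1 of 6 was called higher in VT against fresh. This was Rrm1, the large subunit of ribonucleotide reductase, with 90.76, 119.6 and 96.77 FPKM in MVT, 153.8, 128.5 and 149.5 FPKM in VT, and 68.30 and 71.03 FPKM in fresh libraries (VT minus fresh 1.03 ± 0.16, limma, adjusted p = 0.0394). All 6 genes of this list were above 0 in VT minus fresh and below 0 in MVT minus VT, with medians of 0.37 and -0.44. Of all tested genes, 63.5% and 43.8% were above 0 in these comparisons, with medians of 0.14 and -0.05. Of 19 S phase genes 1 was called higher in VT against fresh, the helicase subunit Mcm7 (VT minus fresh 0.87 ± 0.15, limma, adjusted p = 0.0414). It had 28.34, 31.76 and 27.93 FPKM in MVT, 38.39, 37.47 and 42.90 FPKM in VT, and 21.26 and 21.17 FPKM in fresh libraries. For Rrm1 and Mcm7 the MVT libraries lay between the other groups without overlap. The S phase median was 0.31 in VT minus fresh, beside 0.14 for all tested genes. In MVT minus VT the S phase median was -0.29, beside -0.05, and 17 of 19 were below 0 and 0 were called. In VT minus fresh, without fresh replicate 1, no gene of these 3 lists was called, and their medians were -0.20, 0.41 and 0.18 for folate, thymidylate and S phase. Without fresh replicate 2 the medians were 0.07, 0.18 and 0.50, so that the folate median changed sign. The all-gene medians of these fits are not given here, so the shifts are not shown to be particular to a list.

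In the other lists limma called 0 genes in any comparison with all libraries in the fit. Calls gained with a fresh library left out are again not listed. Among 11 purine synthesis genes, 10 were above 0 in VT minus fresh, with a median of 0.19. Of all tested genes, 63.5% were above 0 in this comparison, with a median of 0.14. Gart, an enzyme that uses formyl-folate, averaged 53.6 ± 7.9 FPKM in VT and 34.9 ± 6.7 FPKM in fresh libraries (0.61 ± 0.19, limma, adjusted p = 0.117). Atic, the other such enzyme, averaged 1.61 ± 0.17 FPKM in MVT and 3.68 ± 0.37 FPKM in VT libraries (-0.84 ± 0.20, limma, adjusted p = 0.132). Of the methionine cycle, with a median of 0.65 over 7 tested genes in VT minus fresh, Bhmt, which remethylates homocysteine with betaine, averaged 5.65 ± 2.13 FPKM in VT and 1.31 ± 1.80 FPKM in fresh libraries (1.73 ± 0.48, limma, adjusted p = 0.0907). Mtrr, which keeps methionine synthase active, averaged 29.8 ± 4.0 FPKM in MVT and 18.6 ± 3.9 FPKM in VT libraries (0.66 ± 0.19, limma, adjusted p = 0.198). The glycine cleavage system had 4 tested genes and a median of 0.09 in VT minus fresh, beside 0.14 for all tested genes. Gcsh averaged 106.7 ± 16.7 FPKM in MVT and 150.0 ± 10.5 FPKM in fresh libraries (limma, adjusted p = 0.183). Gldc averaged 14.2 ± 2.5 FPKM in VT and 10.6 ± 7.8 FPKM in fresh libraries (limma, adjusted p = 0.437). The glycine cleavage median was -0.13 without fresh replicate 1 and 0.17 without fresh replicate 2, so its sign depended on the fresh library. Without the all-gene medians of these fits, this shift is not shown to be particular to the list.

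Amino acid transport had a median of -0.40 over 7 tested genes in VT minus fresh. The median depended on the fresh library, at -0.75 without replicate 1 and -0.14 without replicate 2, again without all-gene medians beside it. Slc7a5, a carrier of large neutral amino acids, averaged 6.19 ± 2.04 FPKM in MVT and 12.9 ± 4.0 FPKM in fresh libraries (limma, adjusted p = 0.166). Slc38a1, a carrier of small neutral amino acids, averaged 8.02 ± 1.65 FPKM in MVT and 12.9 ± 3.0 FPKM in VT libraries (limma, adjusted p = 0.241). The 6 tested genes of serine use had a median of 0.14 in VT minus fresh, beside 0.14 for all tested genes. Without fresh replicate 1 the list median was 0.04, with 3 above and 3 below 0. Cth, the second enzyme from homocysteine and serine to cysteine, averaged 14.1 ± 2.0 FPKM in MVT and 20.1 ± 3.6 FPKM in VT libraries, and Sptlc1, which joins serine to a fatty acid, averaged 28.1 ± 4.4 FPKM in MVT and 19.7 ± 3.0 FPKM in fresh libraries (limma, adjusted p = 0.258 and 0.245).

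**Figure D4:**
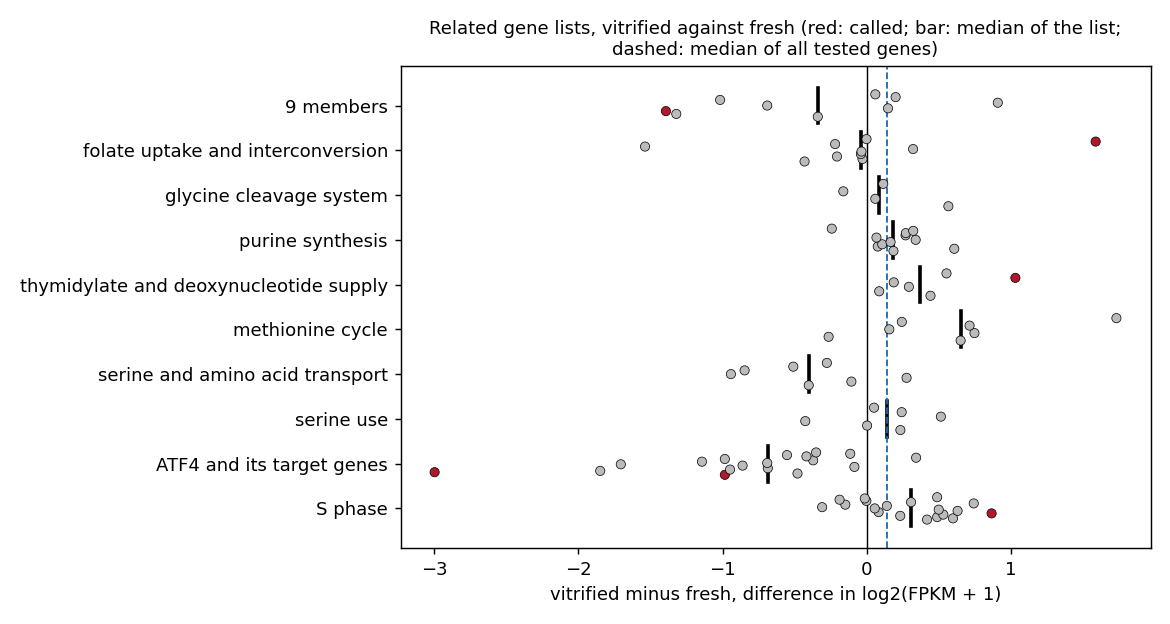
VT minus fresh difference in log2(FPKM + 1) for each tested gene of the 9 members and of 9 related lists (points are genes, red points passed at an adjusted p below 0.05, black bars are list medians, and the dashed line is the median of all tested genes, 0.14). The ATF4 list has a median of -0.69 and 17 of 18 genes below 0, and the members have a median of -0.34 with Psph as the red point.

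Finally, the genes whose levels followed Psph, Phgdh and Mthfd2 most closely were looked up by Pearson correlation of log2(FPKM + 1) over the 8 libraries, among 5720 other genes with a mean of at least 5 FPKM. These are descriptions, since the libraries share their groups and depth. For Psph the closest were Oaz1-ps (r = 0.972), Ufm1 (r = 0.972), which encodes a small protein modifier, and Slc35c2 (r = 0.968). Ufm1 had 9.292, 11.58 and 11.80 FPKM in VT libraries, against 16.70 and 15.64 FPKM in fresh libraries. For Phgdh they were 1700016K19Rik (r = 0.95), Tpm1 (r = 0.897), a tropomyosin, and 2610528J11Rik (r = 0.896). For Mthfd2 they were Lsm10 (r = 0.964), Trib3 (r = 0.954) and Gm9376 (r = 0.945). Trib3, a pseudokinase of the ATF4 list, had 61.79, 11.43 and 50.30 FPKM in MVT, 22.47, 14.08 and 27.06 FPKM in VT, and 57.54 and 101.4 FPKM in fresh libraries, and like Mthfd2 it was lowest in MVT replicate 2.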

How the data were processed

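Libraries were grouped by the biosample descriptions. The authors deposited FPKM per gene and library on mm10, per the submitters' processing notes. Which aligner, counter and annotation were used, and whether strand was, is not given in the sources used here, and labels describe both a small-input and a poly(A) bulk library method. Ensembl identifiers were matched to GENCODE M21 (GRCm38), 19577 of 19688. Fragments per library were estimated from the steps of FPKM times length, which were whole within 0.1 for 93.7% to 95.7% of low values.

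Genes with at least 1 FPKM in at least 2 libraries (10755 tested, 8933 not) were tested on log2(FPKM + 1) with limma 3.58.1 in R 4.3.3, fitting all 8 libraries together with a trended prior variance. Tests were two-sided, with calls at a Benjamini-Hochberg adjusted p below 0.05 over all tested genes. Such fold changes understate those of low genes. The fit was tested on simulated data. Members and lists were chosen with earlier results of these data known. Named genes are the 9 members, called genes of each list (at most 4 per comparison), otherwise its 2 of smallest p, and the 3 genes most like Psph, Phgdh and Mthfd2. Alternatives covered scaling, filters, pseudocount, groups fitted, replicate blocks, library weights, embryo sex, single libraries left out and the threshold. Tables and plots were made in Python 3.11.15. A planned protein alignment was not analysed here.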

Additional observations from a re-analysis of the deposited data

How the results depend on the processing

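For VT against fresh, with 93 genes and 1 member called, quantile normalization gave 3 genes and 0 members. Median ratio scaling gave 7 and 0, rescaling to a common sum 195 and 2, and no filter 1 and 0. Fitting only the 2 groups gave 11 and 0, library weights 1 and 0, and an adjusted p below 0.1 gave 686 and 4. With embryo sex as a covariate the VT value rests on VT replicate 1 alone, so counts for that fit are left out. With the replicate block, 1 gene was called for biosample numbers and 39 for title numbers, and 0 members in each. Leaving out 1 library gave 2 to 433 genes (41, 51 and 6 without MVT replicates 1, 2 and 3, 7, 8 and 2 without VT replicates 1, 2 and 3, 17 without fresh replicate 1 and 433 without fresh replicate 2) and 0 to 1 members. For MVT against VT, with 15 genes called, there were 8 after quantile normalization and 6 with a pseudocount of 0.1. Fitting only the 2 groups gave 68, library weights 233, and an adjusted p below 0.1 gave 45. The replicate block gave 1 and 0 for biosample and title numbers. The count with embryo sex as a covariate is left out for the same reason as above. Leaving out 1 library gave 1 to 68 (2, 11 and 1 without MVT replicates 1, 2 and 3, 15, 8 and 5 without VT replicates 1, 2 and 3, 67 and 68 without fresh replicates 1 and 2), and 0 members were called under any of the 21 alternatives. For MVT against fresh, with 0 genes called, there were 5 with a pseudocount of 0.1, 2 with only the 2 groups fitted, 44 with the replicate block for title numbers, and 0 to 565 with 1 library left out, with 0 to 1 members. The 565 came without fresh replicate 2, and the other 7 libraries gave 0 to 2.

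Directions turned for members of small difference. VT minus fresh was -0.047 for Mthfd1l and -0.009 for Tyms after quantile normalization, and -0.131 for Tyms and -0.046 for Shmt1 after median ratio scaling. MVT minus VT for Shmt2 was -0.085 with the replicate block for title numbers and -0.058 with library weights, and MVT minus fresh for Phgdh was 0.12 after rescaling. With 1 library left out, Mthfd1l ranged from -0.477 to 0.879 in VT minus fresh, -0.794 to 0.161 in MVT minus VT and -0.832 to 0.523 in MVT minus fresh, Shmt2 from -0.11 to 0.13 in MVT minus VT, and Phgdh from -0.114 to 0.038 in MVT minus fresh. The causes were not tested. Of 179 member values per comparison, 160, 174 and 173 kept direction and side of the threshold for VT against fresh, MVT against VT and MVT against fresh. Most of these values belong to members not called with all libraries. Psph in VT against fresh, the only called member, kept its call in 7 of 20 alternatives and lost it in 13. Mthfd1l was not fitted at a mean of at least 5 FPKM.

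Without 1 fresh library (chosen after seeing the data), 2 to 3 members were higher without overlap in VT, beside 37.7% and 49.7% of all tested genes without fresh replicates 1 and 2, and 1 to 2 in MVT, beside 29.9% and 45.4%. The replicate numbers were not taken to pair libraries, since the biosample and title numbers differ and neither is stated to pair samples. Residual correlations between libraries of 1 biosample number were -0.115 to 0.121, and of 1 title number -0.115 to 0.039. Of the 6 MVT and VT libraries, 4 correlated best with their own biosample number, MVT 1 with VT 1 and MVT 2 with VT 2 in both directions. These values do not settle whether libraries were paired. Mthfd1l had the fewest estimated fragments, 8 to 109 per library. The part of depth in its spread was not tested.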
